A study of Rattus norvegicus with 20 samples.

Results

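A2m, Lbp, Stat3 and Fgl1, 4 genes of the interleukin-6 (IL-6) type acute phase response, were followed in the livers of 20 male Zucker rats, 5 of which were lean controls. They were taken by gene symbol from the platform annotation, and the probe set with the highest mean over all arrays stood for a gene. Each of the 4 had 1 probe set (17786724 for A2m, 17768342 for Lbp, 17661537 for Stat3 and 17708097 for Fgl1). They are 4 of 14557 genes with a single symbol, and all 4 were among the 9481 genes tested.

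Liver RNA was hybridised to Affymetrix Rat Gene ST array strips, 1 array per rat, from 100 ng of total RNA each. The 4 groups of 5 rats were rats named for rosiglitazone, rats named for resveratrol, obese rats that received the stock diet over 6 weeks, and lean control rats that received chow. Every rat was male, lived in a cage of its own on a reverse cycle of 12 h of light and 12 h of dark, and ate and drank freely. Neither a dose nor a body type is given for the rosiglitazone and resveratrol rats, and the obese group is taken here as their reference. The labels place the rats in the Zucker diabetic fatty (ZDF) model, in which a defective leptin receptor, when inherited from both parents, leads to obesity and diabetes. Rosiglitazone, an insulin sensitiser, acts through the nuclear receptor PPARgamma. Resveratrol is a polyphenol found in grapes.

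In the acute phase response, IL-6 and related cytokines bind a receptor on hepatocytes that signals through a shared subunit and the JAK kinases to the transcription factor STAT3. STAT3 enters the nucleus, induces genes of secreted plasma proteins together with its own gene, and is held back by SOCS proteins. A2m encodes alpha-2-macroglobulin, a broad protease inhibitor that is the classic major acute phase protein of the rat. Lbp encodes the lipopolysaccharide-binding protein, which hands bacterial lipopolysaccharide to CD14, and Fgl1 encodes hepassocin, a fibrinogen-like protein secreted by hepatocytes.

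Expression is given as log2 values made by robust multi-array averaging (RMA), so a difference of 1 is a 2-fold difference. The array medians lay between 2.36 and 2.53, pairwise correlations between arrays over the tested genes between 0.947 and 0.982, and no array was a copy of another. The number of arrays limits the precision. Of 8 hepatocyte markers tested, none was called in any of 6 comparisons between groups (limma, with at most 1 at an unadjusted p under 0.05), and their mean level per rat was 10.61 to 10.75 over all 20 arrays. Values are means ± SD over n = 5 rats per group, differences are the first named group minus the second with their standard error (SE), and p-values of differences come from limma over all 9481 genes with Benjamini-Hochberg adjustment. A gene was called at an adjusted p under 0.05. Because the samples are whole liver, fewer cells of a type and less RNA per cell cannot be told apart.

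The table of RefSeq start-site sequences used here (assembly GRCr8) covers Stat3 among the 4 genes. Its sequence is shown beside that of C4bpb, which had the smallest p for rosiglitazone against obese livers in the list of IL-6 induced proteins. Each is the 250 bases before the start site, 5′ to 3′ on the gene's own strand, and capitals mark matches to TTCNNNGAA, the palindrome that STAT proteins bind, or to CTGGGAA, the core of IL-6 response elements.
Stat3 promoter: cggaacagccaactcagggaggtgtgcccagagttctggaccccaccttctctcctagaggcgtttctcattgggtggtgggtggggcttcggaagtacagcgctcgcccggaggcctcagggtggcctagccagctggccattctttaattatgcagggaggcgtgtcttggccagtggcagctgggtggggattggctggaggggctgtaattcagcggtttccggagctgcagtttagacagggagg
C4bpb promoter: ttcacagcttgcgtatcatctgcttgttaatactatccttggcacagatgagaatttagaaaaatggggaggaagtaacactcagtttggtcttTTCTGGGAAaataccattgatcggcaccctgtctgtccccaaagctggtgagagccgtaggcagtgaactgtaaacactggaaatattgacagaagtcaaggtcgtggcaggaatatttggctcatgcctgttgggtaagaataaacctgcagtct
With 50 further bases after the start site, these windows span chr10:86363310-86363609 for Stat3 and chr13:44683732-44684031 for C4bpb, both on the minus strand. C4bpb held the STAT palindrome at position −156, overlapping an IL-6 response core at −154, and a further core at 39 after the start site. Stat3 held neither, nor the C/EBP palindrome TTGCNNCAA or the glucocorticoid receptor sequence TGTTCT, on either strand of this window. The same window of C4bpa, which was called beside C4bpb in that list, held none of these sequences. C4bpb was picked by its p and does not stand for the list. Over 27457 rat promoters of the same length, 8.68% held TTCNNNGAA, 10.9% CTGGGAA, 2.11% TTGCNNCAA and 20.1% TGTTCT, and a match is a description of letters, not a binding site.

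Rosiglitazone livers were set against obese livers to see how the drug group stands beside obese rats on the stock diet. All 4 genes were higher in rosiglitazone livers, with no overlap of the groups in any of them. Over all tested genes 1.04% were called higher and 2.23% were higher without overlap. The median difference of the 4 genes was 1.29 on the log2 scale, against −0.0035 over all tested genes. These genes were selected with earlier results of the same arrays known, so 4 of 4 is a description of them.

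A2m stood at 6.46, 6.71, 4.69, 5.30 and 8.37 in rosiglitazone rats 1 to 5. In obese rats 1 to 5 it stood at 2.75, 2.96, 3.79, 2.72 and 2.34. The lowest rosiglitazone liver lay above the highest obese liver, and rosiglitazone rat 5 was the highest of all 20 rats. The means were 6.31 ± 1.42 in rosiglitazone and 2.91 ± 0.54 in obese livers, a difference of 3.40 (SE 0.80, limma adjusted p = 0.0334), or 10.5-fold with a 95% interval of 3.34 to 33.3. The obese values lie near the array medians, and no background level was measured, which leaves the size of this fold uncertain. The call was lost when 1 of 8 arrays was left out: rosiglitazone rat 1 (adjusted p = 0.0709), rat 2 (0.0658) or rat 5 (0.0952), or obese rat 1 (0.0598), rat 2 (0.0685), rat 3 (0.0514), rat 4 (0.0779) or rat 5 (0.0828). Without resveratrol rat 1 the adjusted p was 0.00125.

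Lbp stood at 8.57, 8.34, 8.74, 8.67 and 9.74 in rosiglitazone rats 1 to 5. It was 8.01, 7.64, 7.61, 7.50 and 7.64 in obese rats 1 to 5. The nearest values were 8.34 in rosiglitazone rat 2 and 8.01 in obese rat 1, so the groups did not overlap. Group means were 8.81 ± 0.54 in rosiglitazone and 7.68 ± 0.19 in obese livers, a difference of 1.13 (SE 0.29, limma adjusted p = 0.0478), or 2.19-fold (95% interval 1.45 to 3.30). This call lay close to the threshold and was lost in 15 of 20 fits that left out 1 array, with adjusted p of 0.0714, 0.0774, 0.0841 and 0.136 without rosiglitazone rats 1, 3, 4 and 5, 0.0516, 0.0978, 0.107, 0.112 and 0.0965 without obese rats 1 to 5, 0.0502, 0.0566 and 0.0570 without resveratrol rats 3, 4 and 5, and 0.0564, 0.0603 and 0.0585 without lean control rats 2, 4 and 5.

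Stat3 stood at 7.72, 7.43, 7.83, 7.55 and 8.32 in rosiglitazone rats 1 to 5. It was 7.23, 7.09, 6.72, 6.74 and 6.82 in obese rats 1 to 5. The groups did not overlap, and the spread within each was narrower than for A2m. The mean was 7.77 ± 0.34 in rosiglitazone and 6.92 ± 0.23 in obese livers, a difference of 0.85 (SE 0.21, limma adjusted p = 0.0400), or 1.80-fold (95% interval 1.34 to 2.43). It was lost without rosiglitazone rat 1 (adjusted p = 0.0731), rat 3 (0.0749), rat 4 (0.0605) or rat 5 (0.115), without obese rat 2, 3, 4 or 5 (0.0644 to 0.107), and without lean control rat 4 (0.05001).

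Fgl1 stood at 9.36, 9.09, 9.28, 9.04 and 10.0001 in rosiglitazone rats 1 to 5. It was 8.38, 7.74, 7.70, 8.14 and 7.51 in obese rats 1 to 5. Every rosiglitazone liver lay above every obese liver, the nearest being rosiglitazone rat 4 and obese rat 1. The mean was 9.36 ± 0.38 in rosiglitazone and 7.89 ± 0.36 in obese livers, a difference of 1.46 (SE 0.27, limma adjusted p = 0.00600), or 2.75-fold (95% interval 1.86 to 4.07). Of the 4 genes it was the 1 that stayed called in all 20 fits with an array left out (adjusted p = 0.00299 to 0.0251). In the exact permutation test of a single gene (two-sided, 5 rats against 5), each of the 4 genes reached p = 0.00794, the smallest this design allows. Groups without overlap always give this value, so it restates the lack of overlap and adds no support.

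**Figure D1:**
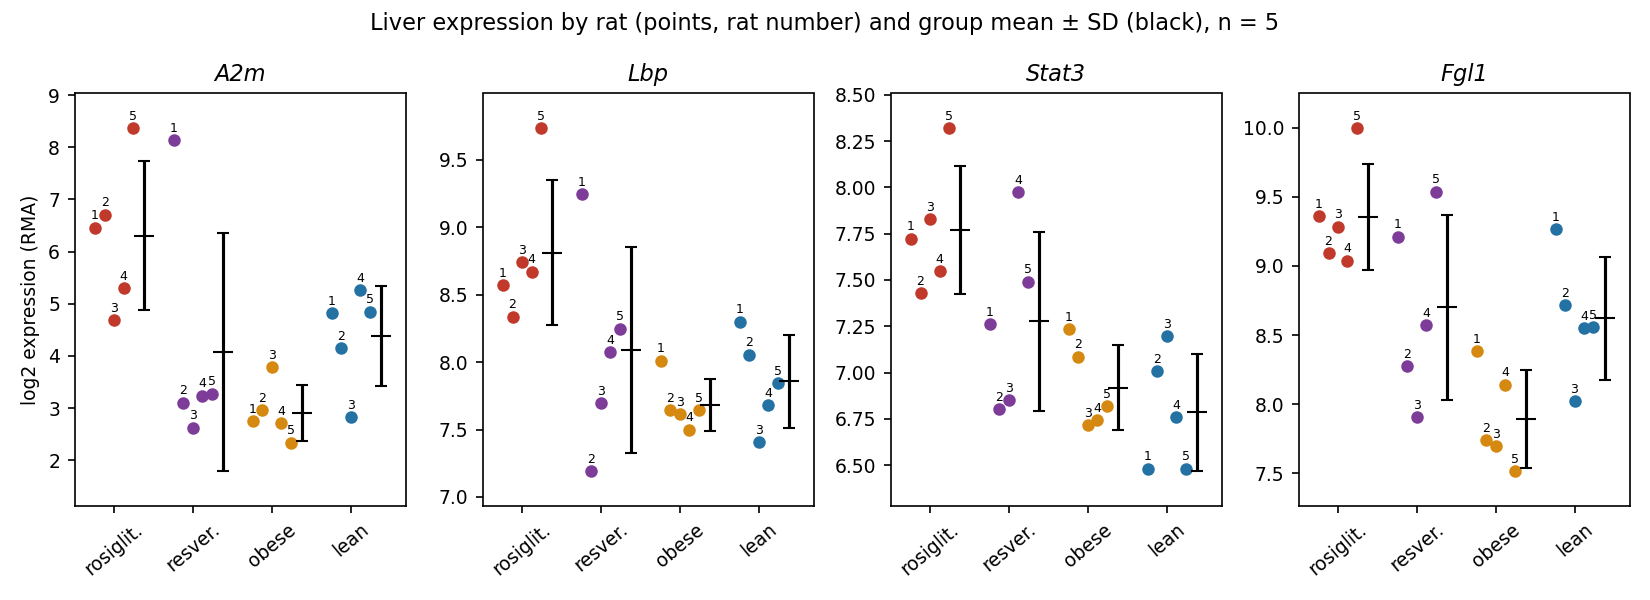
Log2 expression of A2m, Lbp, Stat3 and Fgl1 in each rat (points, numbered by rat) of the rosiglitazone, resveratrol, obese and lean control groups, with group means and SD in black (n = 5) and a vertical axis of its own for each gene. In all 4 genes the 5 rosiglitazone points lie above the 5 obese points, and in A2m resveratrol rat 1, at 8.14, lies apart from the other resveratrol rats at 2.62 to 3.28.

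**Figure D2:**
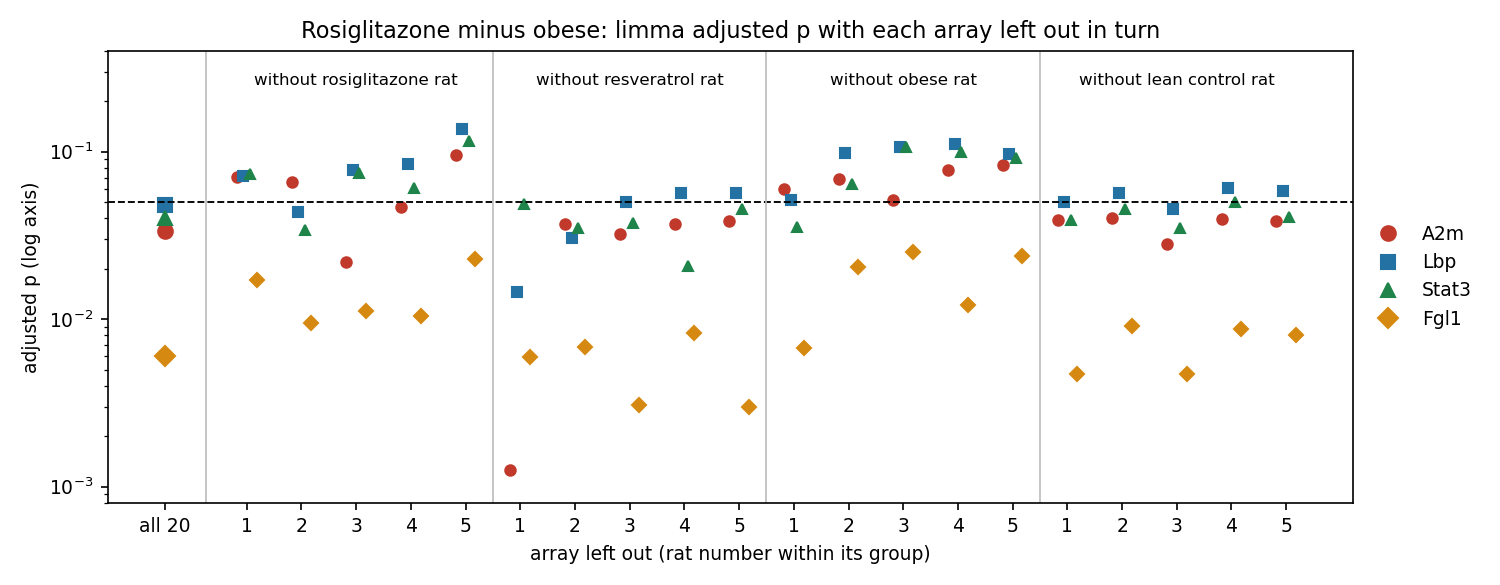
Limma adjusted p (log axis) of rosiglitazone minus obese for the 4 genes with all 20 arrays and with each array left out in turn, the dashed line marking 0.05. Fgl1 stays under the line throughout, while Lbp runs from 0.0146 without resveratrol rat 1 to 0.136 without rosiglitazone rat 5.

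Macrophage and Kupffer cell markers moved in this comparison. Of 15 tested, 11 were called higher in rosiglitazone livers and none was called lower, where 1.04% of all tested genes were called higher. Of the 15 differences 14 were above 0, with a median of 0.66. Without rosiglitazone rat 4 or 5 or obese rat 3 or 4, 7 were still called. Their mean level per rat ran from 5.47 to 5.98 in rosiglitazone livers and from 4.76 to 5.00 in obese livers. Examples that stayed called with each array left out are Cd5l, a protein secreted by tissue macrophages (6.10 ± 0.26 in rosiglitazone and 4.55 ± 0.42 in obese livers, difference 1.55, SE 0.18, limma adjusted p = 4.77e-05), and the complement receptor Vsig4 (6.47 ± 0.23 and 5.20 ± 0.14, difference 1.27, SE 0.19, adjusted p = 0.000848). The array scale has no true zero, and no marker could be called absent. The part of these cells in the difference of the 4 genes was not tested. Hepatocyte markers had a mean level per rat of 10.61 to 10.68 in rosiglitazone and 10.67 to 10.73 in obese livers. In the lists named for other cells, 1 of 10 endothelial (Vwf) and 1 of 4 lymphocyte and neutrophil markers (Cd4) were called higher in rosiglitazone livers. Cd3d, Cd3e and Cd3g of the latter list stayed under the filter on low values, so Cd4 alone does not show a change in lymphocytes. Which cells the Cd4 difference came from was not tested. None of 9 stellate cell or 3 cholangiocyte markers was called (3 and 1 at an unadjusted p under 0.05). The Vwf call was lost without rosiglitazone rat 1, 2, 3, 4 or 5 or obese rat 1, 3, 4 or 5 (adjusted p = 0.0614 to 0.107), with no filter on low values, with arrays centred on their median and with the replicate number as a block (the replicate block, 0.0560 to 0.0771). Of the stellate cell markers 1 was called without rosiglitazone rat 2 or lean control rat 5, and of the lymphocyte and neutrophil markers 2 without lean control rat 5.

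Resveratrol livers held a wide range in all 4 genes, and none of the 4 was called against obese livers (limma, 0 called and 1, Fgl1, at an unadjusted p under 0.05). Over all tested genes 0.0105% were called in this comparison, which was 1 gene, and 5.33% had an unadjusted p under 0.05. The median difference of the 4 genes was 0.61, against 0.0011 over all tested genes.

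A2m stood at 8.14, 3.10, 2.62, 3.24 and 3.28 in resveratrol rats 1 to 5, a range of 45.8-fold within the group. Resveratrol rat 1 was above 4 of 5 rosiglitazone livers, while the other resveratrol rats lay within the range of the obese rats. The mean of 4.08 ± 2.29 in resveratrol livers, against 2.91 ± 0.54 in obese livers, rests on that rat (difference 1.17, SE 0.80, limma adjusted p = 0.945). With resveratrol rat 1 and rosiglitazone rat 5 left out, a choice made after the data were seen, the difference was 0.15 (adjusted p = 0.993).

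Lbp stood at 9.24, 7.19, 7.69, 8.07 and 8.25 in resveratrol rats 1 to 5. Rat 1 was again the highest, and rat 2 lay below every obese liver. The resveratrol mean was 8.09 ± 0.76 and the obese mean 7.68 ± 0.19 (difference 0.41, 95% interval −0.19 to 1.0, limma adjusted p = 0.945).

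Stat3 stood at 7.26, 6.80, 6.85, 7.97 and 7.49 in resveratrol rats 1 to 5. Here rat 4, and not rat 1, was the highest. The resveratrol mean was 7.28 ± 0.48 and the obese mean 6.92 ± 0.23 (difference 0.36, 95% interval −0.07 to 0.79, limma adjusted p = 0.925). Fgl1 stood at 9.21, 8.27, 7.91, 8.57 and 9.54 in resveratrol rats 1 to 5. Rats 1 and 5 lay at the level of the rosiglitazone livers and rats 2 and 3 within the obese range. The resveratrol mean was 8.70 ± 0.67 and the obese mean 7.89 ± 0.36 (difference 0.81, 95% interval 0.24 to 1.37, limma unadjusted p = 0.00727, adjusted p = 0.737).

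Set directly against resveratrol livers, rosiglitazone livers had higher means of all 4 genes, and none was called (limma, 0 called, 4 of 4 at an unadjusted p under 0.05, against 0.886% called and 11.9% with an unadjusted p under 0.05 over all tested genes). Ranges overlapped in each of the 4. The differences were 2.23 for A2m (95% interval 0.57 to 3.89, adjusted p = 0.228), 0.72 for Lbp (0.13 to 1.31, adjusted p = 0.291), 0.49 for Stat3 (0.06 to 0.92, adjusted p = 0.328) and 0.65 for Fgl1 (0.09 to 1.22, adjusted p = 0.321). A2m was called without resveratrol rat 1 (adjusted p = 0.00679). Of the 15 macrophage markers, 14 had a higher mean in rosiglitazone than in resveratrol livers. The number called higher was 8 (0.517% of all tested genes), and 4 without rosiglitazone rat 4 or 5 or resveratrol rat 1, 2 or 3. With arrays centred on their median or with the replicate block there were 5. Their mean level per rat was 5.47 to 5.98 in rosiglitazone and 4.88 to 5.09 in resveratrol livers, and their part in these differences was not tested.

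The comparison of obese with lean control livers asks how the diabetic model differs from its lean control, and none of the 4 genes was called in it (limma, 0 called and 1, Fgl1, at an unadjusted p under 0.05, against 1.81% and 17.4% of all tested genes). A2m stood at 4.82, 4.15, 2.82, 5.27 and 4.85 in lean control rats 1 to 5. Lean control rat 3 lay within the obese range and the other lean rats above it. The obese mean was 2.91 ± 0.54 and the lean mean 4.38 ± 0.96 (difference −1.47, SE 0.80, adjusted p = 0.360, exact permutation p = 0.0238). Fgl1 stood at 9.26, 8.71, 8.02, 8.55 and 8.56 in lean control rats 1 to 5. Again rat 3 was the lowest lean liver and the 1 inside the obese range. The obese mean was 7.89 ± 0.36 and the lean mean 8.62 ± 0.44 (difference −0.73, SE 0.27, adjusted p = 0.155, exact permutation p = 0.0238).

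Lbp stood at 8.30, 8.05, 7.41, 7.68 and 7.84 and Stat3 at 6.48, 7.01, 7.20, 6.76 and 6.48 in lean control rats 1 to 5. Lean control rat 3 was the lowest lean liver in Lbp and the highest in Stat3. The differences of obese minus lean livers were −0.17 for Lbp (95% interval −0.77 to 0.42) and 0.13 for Stat3 (−0.30 to 0.56), with adjusted p of 0.809 and 0.797. Of the macrophage markers, 3 of 15 were called lower in obese livers (1.13% of all tested genes), and 1 had a difference above 0. The median of the 15 differences was −0.49, and 12 had an unadjusted p under 0.05 (limma), against 17.4% of all tested genes. The number of macrophage markers called was 1 without obese rat 1 or lean control rat 1 or 2, 6 without lean control rat 5, and 0 with only the compared groups in the fit. Of 10 endothelial markers, 2 (Lyve1 and Cdh5) were called lower in obese livers, and none had a difference above 0. Their median was −0.51, and 8 had an unadjusted p under 0.05 (limma). The number called ran from 0 to 4 with 1 array left out, and both calls were lost with only the compared groups in the fit.

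Against lean control livers, Stat3 was the 1 gene of the 4 that was called in rosiglitazone livers (7.77 ± 0.34 in rosiglitazone and 6.79 ± 0.32 in lean livers, difference 0.98, SE 0.21, limma adjusted p = 0.0102, against 2.42% called and 1.01% called higher over all tested genes). It stayed called in all 20 fits with an array left out (adjusted p = 0.00439 to 0.0354). Lbp was higher without overlap in every rosiglitazone liver (8.34 to 9.74 against 7.41 to 8.30 in lean livers, difference 0.95, adjusted p = 0.0804) but was called only without resveratrol rat 1 (0.0306). Over all tested genes 1.57% were higher without overlap. A2m (1.93, adjusted p = 0.234) and Fgl1 (0.73, adjusted p = 0.174) did not pass. Of the 15 macrophage markers 2 were called higher in rosiglitazone livers. All 15 differences were above 0, with a median of 0.27 and 6 at an unadjusted p under 0.05 (limma). Their mean level per rat was 5.47 to 5.98 in rosiglitazone and 4.94 to 5.59 in lean livers, and their part was not tested. The 2 called were Cd5l and Marco. The number called was 0 without lean control rat 4 or 5 or rosiglitazone rat 1. It was 1 without lean control rat 1, rosiglitazone rat 3 or 5 or with only the compared groups in the fit. Of resveratrol against lean control livers no member was called (limma, 0 called and 1, Stat3, at an unadjusted p under 0.05, against 4.74% and 20.4% of all tested genes), with differences of −0.31 for A2m, 0.23 for Lbp, 0.49 for Stat3 and 0.08 for Fgl1.

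**Figure D3:**
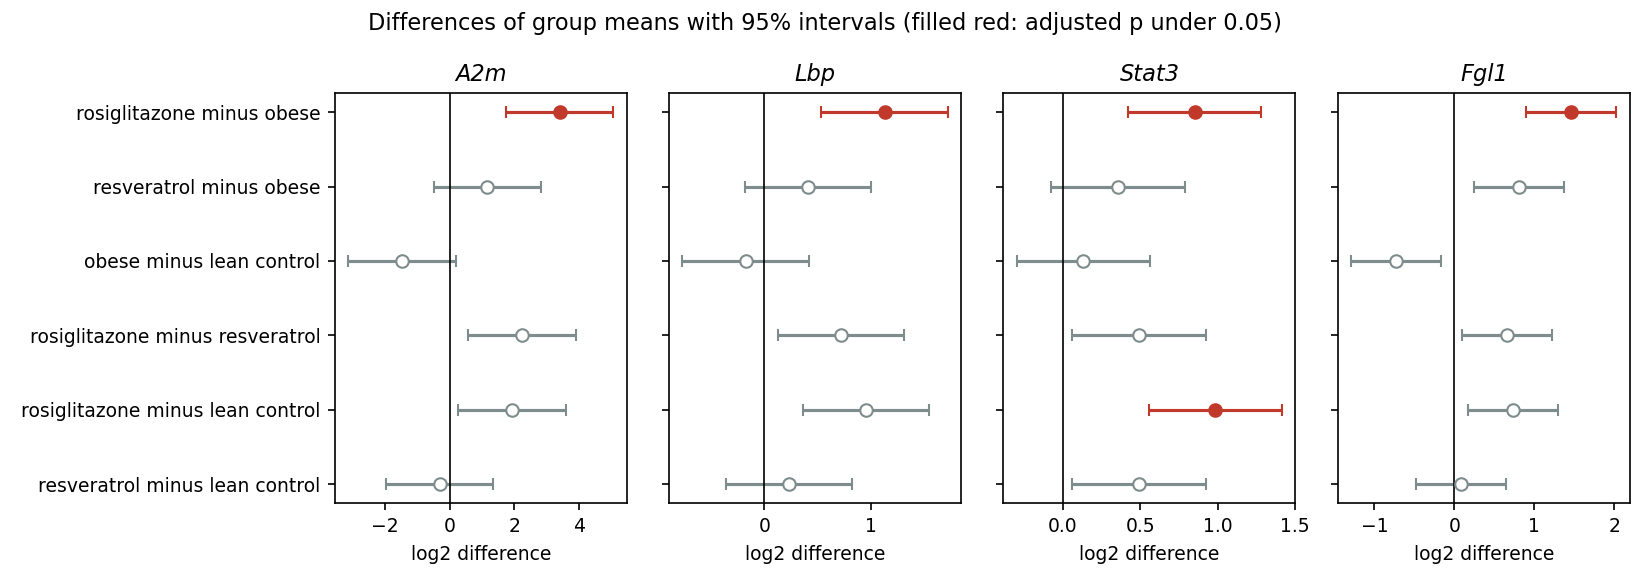
Difference of group means on the log2 scale with its 95% interval for the 4 genes (panels, each with a horizontal axis of its own) in 6 comparisons, filled red where the limma adjusted p was under 0.05. The called differences are the 4 of rosiglitazone minus obese (3.40, 1.13, 0.85 and 1.46) and that of Stat3 in rosiglitazone minus lean control (0.98).

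The order of group means was not the same in the 4 genes. Rosiglitazone livers had the highest mean in each. A2m ran rosiglitazone, lean control, resveratrol and obese from high to low, and Lbp and Fgl1 ran rosiglitazone, resveratrol, lean control and obese. In Stat3 the lean control mean was the lowest and the obese mean next above it. No 2 groups next to each other in these orders differed at an adjusted p under 0.05 (limma adjusted p = 0.155 to 0.945).

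Within groups the rats differed most in A2m. Its range was 12.8-fold in rosiglitazone, 45.8-fold in resveratrol, 2.74-fold in obese and 5.45-fold in lean control livers, and its SD in resveratrol livers exceeded that of 99.99% of tested genes. Ranges of Stat3 were 1.86-fold, 2.25-fold, 1.43-fold and 1.64-fold in the same order of groups. Rosiglitazone rat 5 was the highest of its group in all 4 genes, with a mean deviation of 1.67 in units of the SD of each gene's deviations. Resveratrol rat 1 had a like mean deviation of 1.66, but its A2m lay at 3.04 and its Stat3 at −0.042 in those units. Resveratrol rats 2 and 3 lay below their group mean in all 4 genes, as did rosiglitazone rat 4 and obese rat 5.

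**Figure D4:**
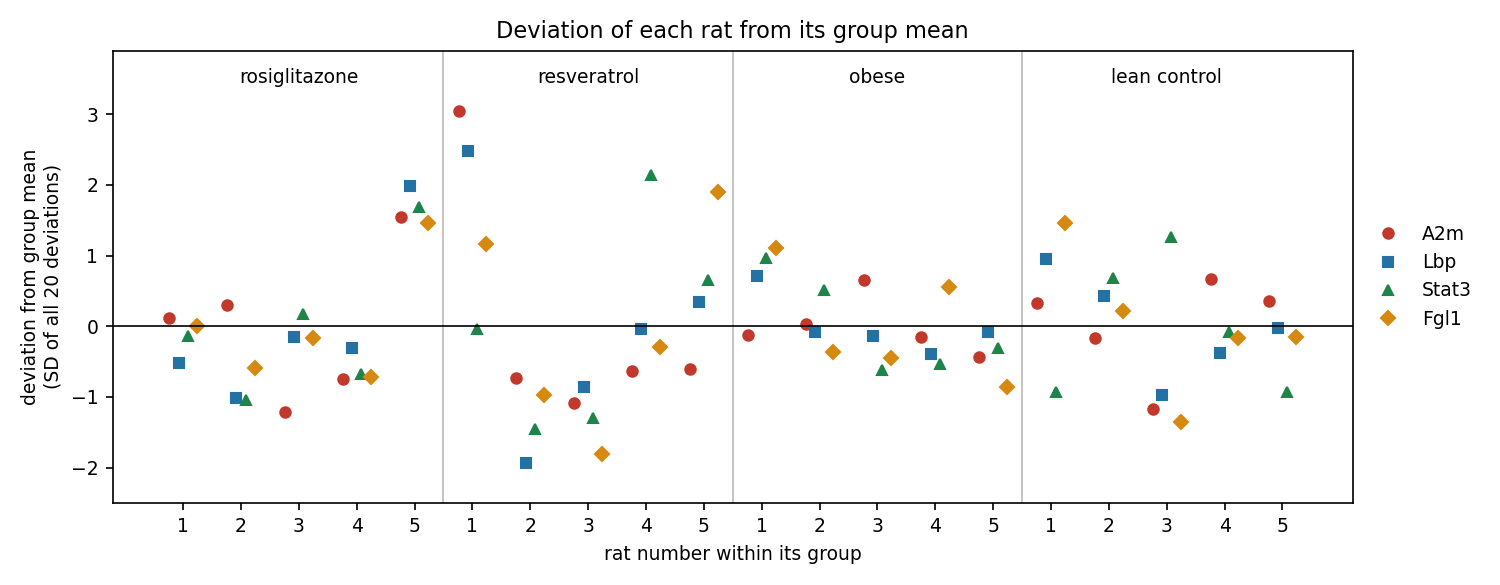
Deviation of each of 20 rats from its group mean for the 4 genes (symbols), in units of the SD of that gene's 20 deviations, with groups separated by vertical lines. Rosiglitazone rat 5 lies above its group mean in 4 of 4 genes, and resveratrol rat 1 reaches 3.04 in A2m with Stat3 at −0.042.

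After group means were removed, Lbp and Fgl1 varied together over the 20 rats (Pearson r = 0.753, Spearman rho = 0.746, permutation within groups p = 0.00163 for r, adjusted over 6 pairs 0.00978). Without resveratrol rat 1 and rosiglitazone rat 5, the rats farthest from the median of Lbp, r was 0.725 (permutation adjusted p = 0.0176). A2m and Lbp had r = 0.729 (permutation p = 0.0140, adjusted 0.0419), but rho was 0.459 (permutation adjusted p = 0.118) and r fell to 0.300 without the same 2 rats (permutation adjusted p = 0.342), so this relation rests on them. Of the other 4 pairs, A2m and Fgl1 had r = 0.516 and rho = 0.507, Lbp and Stat3 0.414 and 0.465, Stat3 and Fgl1 0.328 and 0.386, and A2m and Stat3 0.0333 and −0.0226. None of these 4 passed (permutation adjusted p for r = 0.125, 0.261, 0.318 and 0.926).

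**Figure D5:**
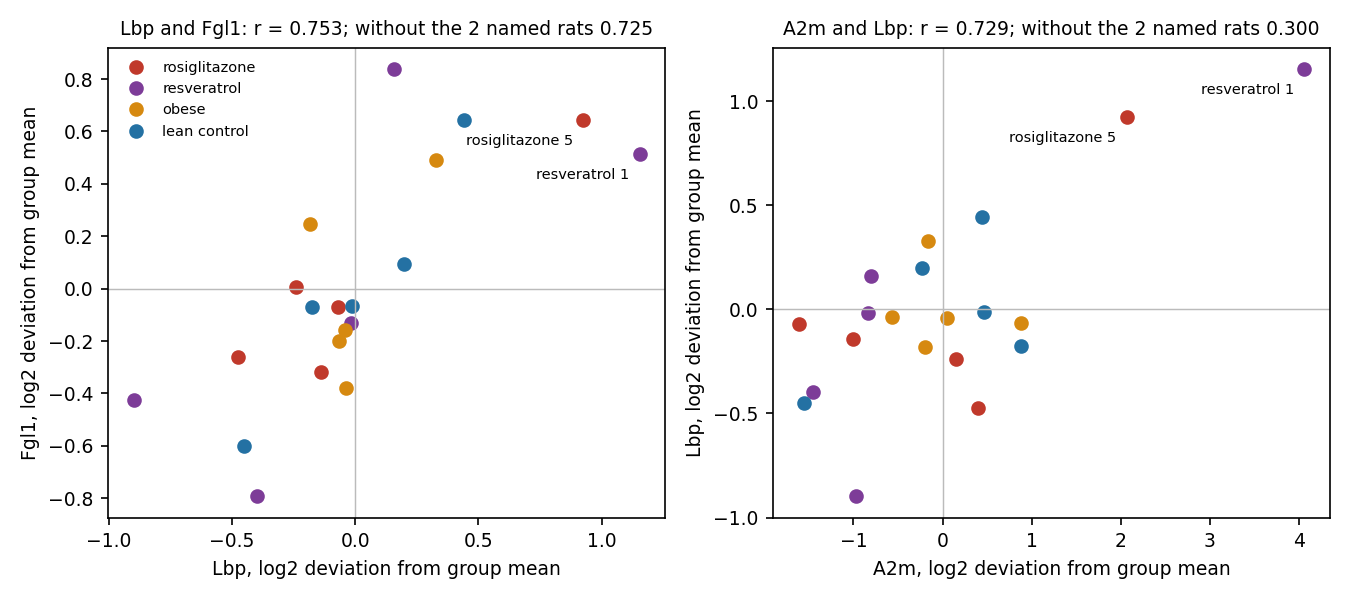
Deviation from the group mean (log2) of Lbp against Fgl1 (left) and of A2m against Lbp (right) over 20 rats coloured by group. Leaving out resveratrol rat 1 and rosiglitazone rat 5, which are named in the panels, gives r = 0.725 in place of 0.753 for Lbp and Fgl1 and 0.300 in place of 0.729 for A2m and Lbp.

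The genes most like the members in this variation between rats are given as a description over the 20 arrays with group means removed. For the mean profile of the 4 genes they were the complement genes C3 (r = 0.829), C4bpa (0.826) and C9 (0.808), the kinesin Kif5b (0.816) and the haem carrier hemopexin, Hpx (0.806), of 9347 genes compared. Fgl1 was most like C3 (0.811), Prg4 (0.808) and C9 (0.802), and Lbp most like Epn2 (0.861), Kif5b (0.810) and C4bpa (0.803). Stat3 had other neighbours, Ap1b1 (0.891), Farsb (0.871) and the tumour necrosis factor receptor Tnfrsf1b (0.857), and 20 genes reached an r of at least 0.8 with it. Only Cfap97 (0.809) did so with A2m, followed by Lbp. Rosiglitazone rat 5 and resveratrol rat 1 had the largest mean deviations (1.67 and 1.66), and these r values were not computed without them.

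Around the members, the pathway was read from lists ordered by role, with the members left out of the counts. Of 9 IL-6 family ligands 3 were tested, Osm, Clcf1 and Ctf1, and none was called between rosiglitazone and obese livers (limma, 0 at an unadjusted p under 0.05), where 1.50% of all tested genes were called and 12.2% had such a p. Il6 itself stayed under the filter on low values, with 1.73 to 2.25 in rosiglitazone and 1.81 to 2.16 in obese livers. Of 6 receptors tested none was called, and 1, Osmr, had an unadjusted p under 0.05. The IL-6 receptor Il6r averaged 7.33 ± 0.30 in rosiglitazone and 7.29 ± 0.12 in obese livers. The oncostatin M receptor Osmr stood at 4.06, 3.80, 3.98, 3.73 and 5.67 in rosiglitazone rats 1 to 5 and at 3.26, 3.36, 3.40, 3.26 and 3.28 in obese rats. These groups did not overlap, and the difference of 0.93 (SE 0.27) had an adjusted p of 0.0925. Of all tested genes 2.23% were higher without overlap in rosiglitazone livers. Il6st, the shared signalling subunit, was not analysed here.

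Beside Stat3, which was selected with earlier results of these arrays known, 7 JAK kinases and STAT transducers were tested. None of the 7 was called between rosiglitazone and obese livers, where 1.50% of all tested genes were called. Jak1 averaged 7.58 ± 0.13 in rosiglitazone and 7.68 ± 0.07 in obese livers (difference −0.10, adjusted p = 0.762), and Jak2, Tyk2, Stat2, Stat5a, Stat5b and Stat6 were not called in this comparison either (0 of these 7 at an unadjusted p under 0.05). Of 11 inhibitors of the pathway tested, among them Socs1, Cish and the phosphatase Ptpn6, none was called (0 at an unadjusted p under 0.05), and the median difference was 0.12. Socs3 was not analysed here. Of 10 acute phase transcription factors tested beside Stat3, none was called between rosiglitazone and obese livers (1 at an unadjusted p under 0.05), and Cebpb, a C/EBP factor downstream of IL-6, averaged 4.97 ± 0.32 and 4.91 ± 0.31.

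The glucocorticoid receptor Nr3c1, which acts with STAT3 on acute phase genes, was called in the comparisons with lean control livers. It averaged 6.52 ± 0.07 in rosiglitazone, 6.54 ± 0.09 in resveratrol, 6.56 ± 0.07 in obese and 6.99 ± 0.22 in lean control livers. Every lean liver (6.72 to 7.32) lay above every other liver. The differences from lean livers were −0.47 in rosiglitazone (limma adjusted p = 0.0105), −0.45 in resveratrol (0.0145) and −0.43 in obese livers (0.0273). The first 2 stayed called with each array left out, and that of obese livers was lost without obese rat 1, 2, 4 or 5 or lean control rat 1, 2, 4 or 5 (adjusted p = 0.0506 to 0.0709). With only the compared groups in the fit all 3 were lost (0.0897 for rosiglitazone, 0.0771 for resveratrol and 0.111 for obese livers).

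Among the targets, 16 genes listed here as IL-6 induced acute phase proteins were tested beside A2m, Lbp and Fgl1. In rosiglitazone against obese livers 2 were called higher and none lower, where 1.04% of all tested genes were called higher. With the filter at percentile 75 the number called was 4. Of the 16 differences 14 were above 0, and their median was 0.24. An unadjusted p under 0.05 (limma) was held by 9 of the 16, against 12.2% of all tested genes. The 2 called genes were C4bpb and C4bpa, the chains of the complement inhibitor C4b-binding protein. C4bpb stood at 8.66, 8.84, 8.83, 8.43 and 9.04 in rosiglitazone rats 1 to 5, and at 7.76, 7.88, 7.83, 8.12 and 7.73 in obese rats. The difference of 0.90 (SE 0.15, limma adjusted p = 0.00274) stayed called with each array left out. C4bpa stood at 9.25, 9.34, 9.33, 9.27 and 9.89 in rosiglitazone rats 1 to 5, and at 8.95, 8.36, 8.48, 8.49 and 8.66 in obese rats. Its difference of 0.82 (SE 0.18, adjusted p = 0.0217) was lost without rosiglitazone rat 5 (0.0655) or obese rat 2 (0.0637), 3 (0.0646) or 4 (0.0562).

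Other proteins of this list were higher without overlap and did not pass, namely ceruloplasmin Cp (difference 0.39, adjusted p = 0.0789), serum amyloid P Apcs (0.33, 0.0789), the fibrinogen chain Fgg (0.42, 0.101) and the hyaluronan-linked inhibitor chain Itih3 (0.17, 0.393). The share of all tested genes that were higher without overlap was 2.23%. Haptoglobin Hp (0.31, 0.225) and hemopexin Hpx (0.38, 0.144) overlapped. C-reactive protein Crp averaged 9.83 ± 0.12 in rosiglitazone and 9.77 ± 0.13 in obese livers (0.06, 0.884), and the lipopolysaccharide receptor Cd14, which takes over ligand from Lbp, 6.83 ± 0.32 and 6.95 ± 0.29 (−0.11, 0.869). The iron hormone Hamp, a STAT3 target, averaged 9.38 ± 1.59 in rosiglitazone and 9.18 ± 1.04 in obese livers (0.20, 0.963). Rosiglitazone rat 5, the highest in the 4 members, was the lowest of its group in Hamp, with 6.65 against 9.37 to 10.43 in the others.

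Against resveratrol livers, C4bpb was the 1 gene of this list called in rosiglitazone livers (8.76 ± 0.23 and 8.13 ± 0.32, difference 0.63, adjusted p = 0.0485). That call was lost in 14 of 20 fits with an array left out, those without rosiglitazone rat 1, 2, 3 or 5, resveratrol rat 1, 2, 3 or 5, obese rat 1, 2, 3 or 5, or lean control rat 2 or 5 (adjusted p = 0.0517 to 0.152). It was also lost with no filter (0.0668), with arrays centred on their median (0.0795) and with only the compared groups in the fit (0.121). None of the 16 was called in resveratrol against obese, obese against lean control, rosiglitazone against lean control or resveratrol against lean control livers (limma, 2, 5, 8 and 5 at an unadjusted p under 0.05, against 5.33%, 17.4%, 15.5% and 20.4% of all tested genes). Without lean control rat 3, 2 of them were called lower in obese and 1 lower in rosiglitazone than in lean livers, and without resveratrol rat 3, 1 was called lower in obese livers.

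Of 6 tested genes listed here as induced by IL-1, none was called between rosiglitazone and obese livers (1 at an unadjusted p under 0.05). These were Orm1, C3, Nfkbia, Nos2, Ccl2 and Cxcl1, so the list is not one of plasma proteins alone. Orm1, the alpha-1-acid glycoprotein, averaged 9.39 ± 0.49 in rosiglitazone, 9.40 ± 0.45 in resveratrol, 8.94 ± 0.22 in obese and 8.38 ± 0.58 in lean control livers. It was called against lean livers in rosiglitazone (difference 1.01, SE 0.26, adjusted p = 0.0391) and in resveratrol (1.03, SE 0.26, adjusted p = 0.0269). The rosiglitazone call was lost without lean control rat 2, 4 or 5 or rosiglitazone rat 1, 2, 3 or 5 (adjusted p = 0.0524 to 0.114), and the resveratrol call without lean control rat 2, 4 or 5 or resveratrol rat 1 or 5 (0.0544 to 0.0792). Both were lost with only the compared groups in the fit (0.108 and 0.0691).

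Of 8 negative acute phase proteins tested, which the liver makes less of during the response, 1 was called lower and 1 higher in rosiglitazone against obese livers, as were 0.454% and 1.04% of all tested genes. Serpina6, the corticosteroid-binding globulin, averaged 6.97 ± 0.64 in rosiglitazone and 7.91 ± 0.29 in obese livers (difference −0.94, SE 0.22, adjusted p = 0.0334). Serpina7, the thyroxine-binding globulin, averaged 5.75 ± 0.64 and 3.44 ± 0.57 (difference 2.31, SE 0.53, adjusted p = 0.0290). Serpina6 was lost without rosiglitazone rat 3 (0.0804), 4 (0.0606) or 5 (0.0774) or obese rat 2 (0.0692), 4 (0.0981) or 5 (0.0868), with the replicate block (0.0559) and with only the compared groups in the fit (0.115). Serpina7 was lost without rosiglitazone rat 2 (0.0589) or 5 (0.0799) or obese rat 1 (0.0511), 2 (0.0682) or 5 (0.0818). Against lean control livers, Serpina6 was also called lower in rosiglitazone livers (limma adjusted p = 0.000809), and that call stayed with each array left out. Albumin Alb averaged 11.65 ± 0.05 in rosiglitazone and 11.83 ± 0.07 in obese livers (difference −0.18, adjusted p = 0.354). Of 10 glucocorticoid-responsive genes and 11 genes of the circadian clock, none was called between rosiglitazone and obese livers (limma, 2 and 1 at an unadjusted p under 0.05). Without rosiglitazone rat 4, 1 of the first list was called lower. Against lean livers, 1 of the first list (Per1) and 2 of the second (Per1 and Per2) were called lower in rosiglitazone livers. In resveratrol livers 2 (Per1 and Igfbp1) and 1 (Per1) were called lower than in lean livers. Of all tested genes 2.42% and 4.74% were called in these comparisons. Of these calls only Per1 in resveratrol livers stayed with each array left out (limma adjusted p = 0.0123). None of either list was called in obese against lean livers with all 20 arrays.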

How the data were processed

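Total RNA of 20 snap-frozen livers was measured on Affymetrix arrays, 1 per rat. The authors deposited 1 table of log2 expression values, made by RMA (background correction, quantile normalisation and probe summary). For RMA no version, and for the annotation no build, is given in the sources used here. No column of the table was left unmapped.

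Of 36685 probe sets, 15653 had an entry in the platform annotation, 14824 with 1 symbol and 829 with several, and 21032 were unnamed here. Those with several symbols were dropped. A gene was tested where 5 or more arrays exceeded percentile 50 of all probe sets (9481 of 14557, with 5076 left out), since values near the low end of the scale compress differences. No detection call was used.

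Groups were taken from the sample titles. The tests between groups used limma 3.58.1 (R 4.3.3) on all 20 arrays in a single fit, without covariates and two-sided (residual degrees of freedom 16, prior 5.4), with Benjamini-Hochberg adjustment over all tested genes. The fit was tested on simulated data. Single genes were also compared by exact permutation, and pairs by 100000 permutations of the deviations within groups. Members and gene lists were chosen with earlier results of these data known, so nothing here is independent support for a pattern already seen in them. Genes named beside the members were those called in a list in any comparison, a set of key genes of the pathway, and the genes most like each member. Promoters came from a table of RefSeq GRCr8 sequences that is not complete, in which 64 of 87 genes of the members and pathway lists, and 1 of the 4 members, were matched. Alternatives covered the filter, the normalisation, the samples in the fit, the variance model, weights of the arrays, blocks by replicate number, the probe sets of a gene and each array left out in turn. Leaving out resveratrol rat 1 and rosiglitazone rat 5 together was chosen later, with the data in view. Plots were made in Python 3.11.15 with matplotlib 3.10.9.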

Additional observations from a re-analysis of the deposited data

Results flagged for a closer look

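The members, key genes of their pathway and others such as C4bpa made 21 genes. In each, every group of 5 rats was searched for a single value far from the others (84 groups). Chance flags about 1 in 20 groups, and 10 were flagged. Among the members these were A2m in resveratrol rat 1 (8.14, the other 4 at 2.62 to 3.28), Lbp in rosiglitazone rat 5 (9.74, the others at 8.34 to 8.74) and Lbp in obese rat 1 (8.01, the others at 7.50 to 7.64). Rosiglitazone rat 5 also stood apart in Osmr (5.67, the others at 3.73 to 4.06), in Fgg (11.38, the others at 10.78 to 10.93), in C4bpa (9.89, the others at 9.25 to 9.34) and, at the low end, in Hamp (6.65, the others at 9.37 to 10.43). Fgg was apart in resveratrol rat 4 (11.02, the others at 10.51 to 10.62) and in obese rat 2 (10.76, the others at 10.43 to 10.50), and Hp in lean control rat 1 (11.01, the others at 10.51 to 10.61).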

How the results depend on the processing

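No difference or correlation that was called changed its direction under any alternative. For rosiglitazone minus obese, Fgl1 and A2m stayed called under all alternatives other than leaving out a single array. Lbp was no longer called with no filter on low values (adjusted p = 0.0613) or with quantile normalisation repeated (0.0516), nor Stat3 with no filter (0.0534), with arrays centred on their median (0.0526) or with resveratrol rat 1 and rosiglitazone rat 5 both left out (0.134), a choice made after the data were seen. With those 2 left out A2m was called in rosiglitazone minus resveratrol (0.00495). Exact permutation of a single gene, not adjusted over genes, gave 0.0238 for A2m and Fgl1 in obese minus lean control, 0.0476 for A2m, 0.00794 for Lbp and 0.0238 for Fgl1 in rosiglitazone minus lean control and 0.0476 for Fgl1 in resveratrol minus obese. A2m and Lbp had a rho of 0.459 and, without the farthest 2 arrays, an r of 0.300.

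No sign that the replicate numbers pair the rats was seen in the residuals, a check that cannot exclude a pairing. Residuals of rats with the same number in different groups correlated at −0.0198 on average (−0.246 to 0.253), and 3 of 20 arrays correlated best with their own number. With the replicate number as a block the adjusted p for rosiglitazone minus obese was 0.0340 for A2m, 0.0338 for Lbp, 0.0841 for Stat3 (no longer called) and 0.00304 for Fgl1.

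The number of genes called moved by over 1.5 times without the same 2 arrays, to 76 from 142 for rosiglitazone minus obese, 2 from 1 for resveratrol minus obese, 55 from 84 for rosiglitazone minus resveratrol and 241 from 449 for resveratrol minus lean control. With only the compared groups in the fit it was 27 in place of 172 for obese minus lean control, 110 in place of 229 for rosiglitazone minus lean control and 159 in place of 449 for resveratrol minus lean control, and with the filter at percentile 75 it was 290 for obese minus lean control. With 1 array left out at a time it ran from 69 to 161 for rosiglitazone minus obese, 1 to 2 for resveratrol minus obese, 59 to 517 for obese minus lean control, 43 to 105 for rosiglitazone minus resveratrol, 151 to 412 for rosiglitazone minus lean control and 197 to 765 for resveratrol minus lean control. The arrays that moved it by over 1.5 times were, in the same order, rosiglitazone rats 1, 4 and 5 and obese rats 2 to 5; rosiglitazone rat 5; obese rats 1, 4 and 5 and lean control rats 1 to 4; rosiglitazone rats 1 and 4 and resveratrol rats 1 to 3; rosiglitazone rat 1 and lean control rats 3 and 4; and resveratrol rats 1, 2, 4 and 5 and lean control rats 1, 3, 4 and 5. Without lean control rat 3 the counts against lean livers rose, to 517, 412 and 765 for obese, rosiglitazone and resveratrol livers. The cause of these changes was not tested.

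With 1 array left out, the adjusted p ran from 0.00125 to 0.0952 for A2m, 0.0146 to 0.136 for Lbp and 0.0207 to 0.115 for Stat3 in rosiglitazone minus obese, from 0.00679 to 0.402 for A2m in rosiglitazone minus resveratrol, and from 0.0306 to 0.204 for Lbp in rosiglitazone minus lean control. The number of arrays and the lack of a measured background limit these results, most of all for A2m in obese livers.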
